A study of Mus musculus with 12 samples.

Results

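Testis-type paralogs are copies of genes that every cell uses, expressed mainly in male germ cells. The 6 genes described here, Tuba3a, Tuba3b, Cyct, Rpl10l, Tex101 and Arl14epl, were picked by symbol from 23354 genes shared by all libraries, with earlier results of the same comparisons known. Their levels and differences between groups are therefore a description, and no p-value is given for them. All 6 passed the filter on low values, which 13109 genes passed.

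Germ cells carry such copies because transcription from the X chromosome stops during male meiosis and because sperm use their own versions of metabolic and structural proteins. In other cells many germ cell genes are kept silent by DNA methylation, by methylation of lysine 9 on histone H3 (H3K9) and by a Polycomb complex, PRC1.6, that binds DNA through E2F6 and the MGA and MAX pair. Mouse embryonic stem cells nonetheless transcribe a number of germ cell genes at low levels.

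Messenger RNA came from stable lines of the J1 mouse embryonic stem cell line, grown on inactivated mouse embryonic fibroblast feeders in a medium that held leukemia inhibitory factor and serum. The 12 libraries form 6 groups of 2. Overexpression lines carried H3.1K9M, H3.1K36M or, as their control, H3.1WT: histone H3.1 with methionine in place of lysine 9 or lysine 36, or wild-type H3.1. Hairpin lines carried shSuv39h1 or shSuv39h2, against a pair of H3K9 methyltransferase genes, or shNC, taken as the control hairpin. Every line, controls included, carried a stable construct, and the labels state neither how many clones a line rests on nor whether feeder cells were removed. They do not call the replicates separate cultures, so p-values measure replicate spread that could be technical.

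Values are FPKM, fragments scaled to transcript length and library size. The steps between low values put 1 FPKM over 1 kb of usable transcript length at roughly 23.1 to 30.5 fragments, and between 12127 and 12519 genes reached 1 FPKM. Suv39h2 stood at 35.1% of shNC in shSuv39h2 (limma adjusted p = 0.000304), and Suv39h1 at 62.2% of shNC in shSuv39h1, which did not pass (adjusted p = 0.0877). In the overexpression lines Suv39h1 fell in H3.1K36M, to 7.25 ± 0.467 FPKM against 11.3 ± 1.39 FPKM in H3.1WT (64.4%, adjusted p = 0.0163), a call lost in a fit over the overexpression lines alone (the arm alone) and without H3.1WT replicate 2, H3.1K36M replicate 1 or H3.1K36M replicate 2. Replicates lay furthest apart in H3.1K9M, where the SD of the log2 difference across genes was 0.41, against 0.26 in H3.1WT. Embryonic stem cell markers were present in every library, and of 8 tested none passed in H3.1K9M or shSuv39h1, where 3 and 0 had an unadjusted p under 0.05. Nanog rose in H3.1K36M, to 376 FPKM against 192 FPKM in H3.1WT (limma adjusted p = 0.0129), a call lost without any 1 of the 4 libraries. Pou5f1 and Utf1 rose in shSuv39h2, to 973 and 291 FPKM against 720 and 221 FPKM in shNC (adjusted p = 0.0135 and 0.0179), and both calls were lost without shSuv39h2 replicate 1 or shSuv39h2 replicate 2, among other settings. The part of these shifts in the results that follow was not tested. Feeder markers were present as well, and their summed FPKM was 1397 and 705 in H3.1K9M, 990 and 940 in H3.1K36M, 406 and 741 in H3.1WT, 508 and 324 in shSuv39h1, 693 and 558 in shSuv39h2 and 495 and 710 in shNC.

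The label of testis-type genes was set against markers of spermatocytes and spermatids. Of 15 such markers, 12 stayed under 0.5 FPKM in every library. Pgk2 was listed at 0 in all 12 libraries, and the protamine gene Prm1 was listed at 0 in 11. The other 3 were Ldhc, Tcp11 and Piwil1, with highest values of 3.89, 6.60 and 1.00 FPKM. The 6 genes thus stood in libraries whose defining sperm markers were at or near 0. Tex101 does not match the label in one respect: it is a germ cell surface gene of the Ly6 and uPAR family and has no housekeeping counterpart.

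Sequence shows how far each copy can be told from its partner. GENCODE transcripts on GRCm38 place Tuba3a (chromosome 6, 125278274 to 125286042) and Tuba3b (chromosome 6, 145615757 to 145621479) as testis alpha-tubulins, whose coding sequences are 97.0% identical and share an identical run of 155 bases. Of all 100-base windows in the Tuba3a transcript, 12.3% occur unchanged in another gene, always Tuba3b, so the split of reads between these 2 copies is uncertain. Against Tuba1b, the abundant somatic alpha-tubulin, Tuba3a is 84.0% identical. Rpl10l (chromosome 12, 66283379 to 66284401), an intronless copy of the X-linked ribosomal protein gene Rpl10, is 84.7% identical to it with no run beyond 23 bases, and Cyct (chromosome 2, 76353942 to 76360450), the testis cytochrome c, is 76.2% identical to its somatic form Cycs. No 100-base window of Rpl10l, Cyct or Tex101 occurs in another transcript. Among the counterparts 84.4% of Rpl10 windows, 73.0% of Tuba1b windows and 24.7% of Cycs windows recur elsewhere. Those levels, and shares computed from them, may include reads shared with copies. The first 90 coding bases of 2 pairs are printed to show how densely they differ, with capitals at each base that differs from the partner, 13 for Rpl10l and 15 for Cyct.
Rpl10l: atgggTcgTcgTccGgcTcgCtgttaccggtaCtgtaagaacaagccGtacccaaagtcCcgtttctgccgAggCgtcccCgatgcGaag
Rpl10: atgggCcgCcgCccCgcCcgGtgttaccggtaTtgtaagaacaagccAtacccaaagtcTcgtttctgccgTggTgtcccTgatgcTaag
Cyct: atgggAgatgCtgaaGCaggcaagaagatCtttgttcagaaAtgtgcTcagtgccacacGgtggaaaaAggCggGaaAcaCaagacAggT
Cycs: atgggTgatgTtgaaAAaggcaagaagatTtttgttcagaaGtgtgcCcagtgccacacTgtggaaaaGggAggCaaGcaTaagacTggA

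Promoters were searched for the letters TTCCCGC, the core bound by E2F6, in the 250 bases before the RefSeq start (GRCm38.p6), on both strands. Of 32536 promoters, 1250 or 3.8% hold them. They occur once in Tuba3a, Tuba3b and Rpl10l, at 120, 107 and 44 bases before the start. The Tuba3b match lies inside the span that GENCODE gives the gene, from 145615757, so it is upstream by the RefSeq start alone. The Tex101 window likewise lies inside the GENCODE span of Tex101, 24668007 to 24676675. The windows of Cyct, Tex101, Tuba1b, Cycs, Rpl10 and Arl14ep do not hold TTCCCGC. Arl14epl had no entry in the set of RefSeq promoters used, so it was not searched for any of these letters. The E-box letters CACGTG, present in 6.0% of promoters, occur in none of these windows. CCAAT, present in 33.8% of promoters, occurs 3 times in Tuba3a, 2 times in Tuba3b, 1 time in Cyct and 4 times in Tex101. Rpl10l holds 0. Among the counterparts it occurs 2 times in Rpl10, 1 time in Cycs, 1 time in 1 of 3 Arl14ep windows and 0 times in Tuba1b. In 2.8% of promoters 3 or more occurrences are found. These are matches of letters and not measured binding. The upstream windows of Tuba3a (chr6:125286082-125286331, minus strand) and Rpl10l (chr12:66284402-66284651, minus strand) are shown because both genes were high in H3.1K36M, and capitals mark TTCCCGC.
Tuba3a: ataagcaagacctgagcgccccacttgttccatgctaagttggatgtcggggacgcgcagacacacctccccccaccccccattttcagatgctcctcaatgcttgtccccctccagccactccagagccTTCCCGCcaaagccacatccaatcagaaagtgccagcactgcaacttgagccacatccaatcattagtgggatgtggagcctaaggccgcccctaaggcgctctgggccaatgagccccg
Rpl10l: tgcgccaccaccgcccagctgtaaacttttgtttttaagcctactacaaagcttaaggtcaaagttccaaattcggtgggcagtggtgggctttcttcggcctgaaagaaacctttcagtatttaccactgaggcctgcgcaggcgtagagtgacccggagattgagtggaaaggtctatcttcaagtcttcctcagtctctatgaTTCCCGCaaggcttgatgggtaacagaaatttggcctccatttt
Around the match, Tuba3a (chr6:125286191-125286220, minus strand) and Tuba3b (chr6:145615837-145615866, plus strand) have the same 30 bases.
Tuba3a window: ctccagccactccagagccTTCCCGCcaaa
Tuba3b window: ctccagccactccagagccTTCCCGCcaaa

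**Figure D1:**
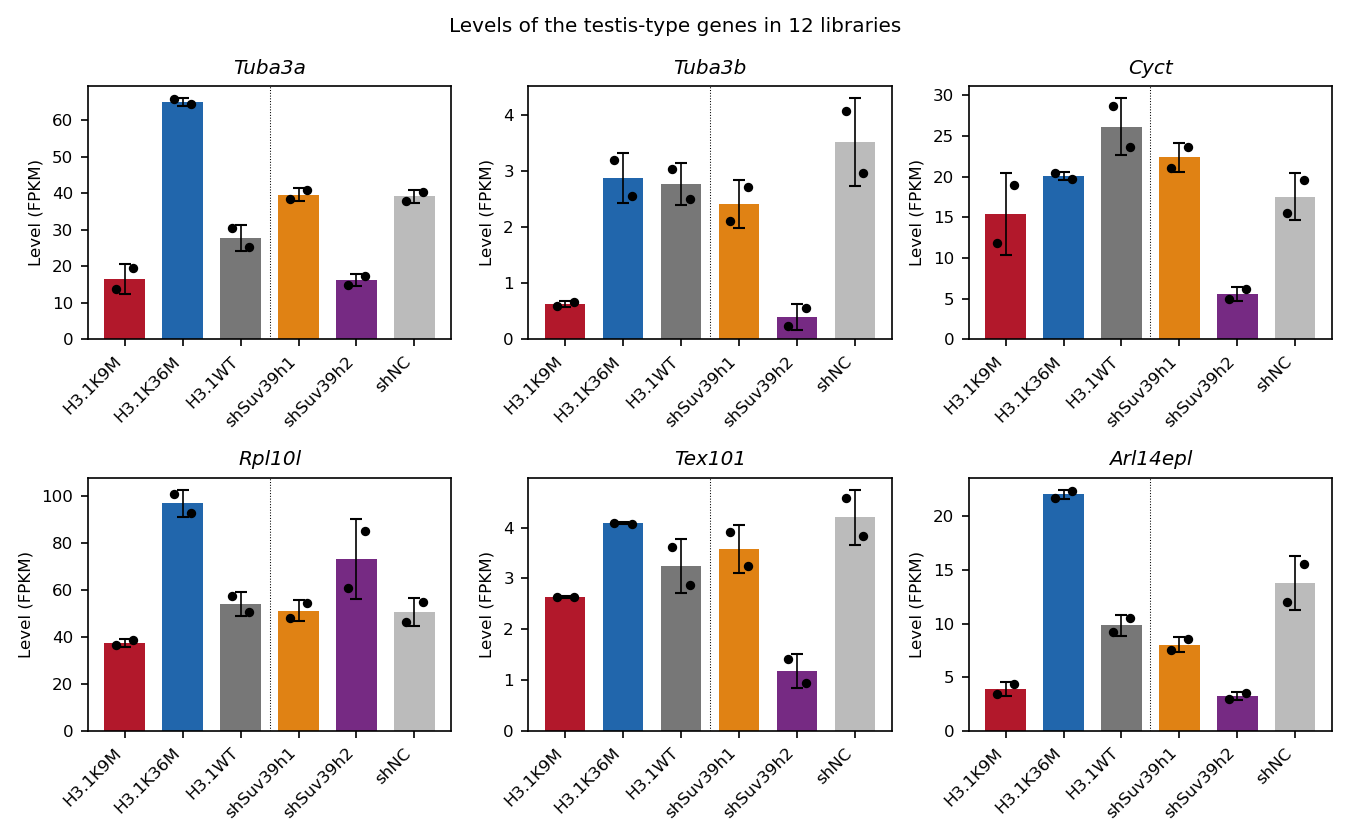
FPKM of the 6 testis-type genes in the 6 groups, with points for the 2 libraries of a group, bars for their mean and error bars for the SD; each panel has its own linear axis from 0, and the dotted line parts the overexpression lines from the hairpin lines. Tuba3a reaches 65.8 FPKM in H3.1K36M, and in shSuv39h2 all genes but Rpl10l lie below shNC.

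Tuba3a encodes an alpha-tubulin of the testis, a subunit of microtubules. It stood at 13.7 and 19.5 FPKM in H3.1K9M, at 65.8 and 64.3 FPKM in H3.1K36M and at 30.3 and 25.3 FPKM in H3.1WT. In the hairpin lines it stood at 38.4 and 40.8 FPKM in shSuv39h1, at 14.98 and 17.3 FPKM in shSuv39h2 and at 37.9 and 40.5 FPKM in shNC. H3.1K36M was highest and apart from every other group, and H3.1K9M and shSuv39h2, the lowest groups, overlapped each other. shSuv39h1 overlapped shNC. On the log2(FPKM + 1) scale the difference was −0.73 (SE 0.149) in H3.1K9M and 1.20 in H3.1K36M, both against H3.1WT, and 0.02 in shSuv39h1 and −1.23 in shSuv39h2, both against shNC, with the same SE. As in any bulk sample, fewer cells that express a gene and less of its RNA per cell cannot be told apart, here or for the genes that follow.

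Tuba3b, the closest relative of Tuba3a, was the least abundant gene of the set. It stood at 0.593 and 0.664 FPKM in H3.1K9M, at 3.19 and 2.56 FPKM in H3.1K36M and at 3.04 and 2.502 FPKM in H3.1WT. The hairpin lines had 2.11 and 2.71 FPKM in shSuv39h1, 0.236 and 0.565 FPKM in shSuv39h2, and 4.07 and 2.96 FPKM in shNC. H3.1K9M and shSuv39h2 were the low groups and lay apart from the others and from each other, while the remaining 4 groups overlapped their neighbours in the order of means. The shSuv39h2 values correspond to about 10 and 26 fragments, so their ratio to shNC, a mean of 0.401 against 3.51 FPKM or 11.4%, is imprecise. Unlike Tuba3a, Tuba3b in H3.1K36M overlapped H3.1WT, with a log2 difference of 0.04 (SE 0.17) beside the 1.20 of Tuba3a. Tuba3b thus made up 4.23% ± 0.567 (SD, n = 2) of the summed FPKM of this pair in H3.1K36M and 9.04% ± 0.0773 in H3.1WT. The share was 3.73% ± 0.609 in H3.1K9M, 2.36% ± 1.15 in shSuv39h2 and 8.26% ± 2.04 in shNC. Reads shared by the 2 copies were split by model, so these shares carry that uncertainty.

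Cyct encodes the testis form of cytochrome c, the electron carrier of the mitochondrial respiratory chain. It stood at 11.9 and 19.03 FPKM in H3.1K9M, at 20.4 and 19.8 FPKM in H3.1K36M and at 28.6 and 23.7 FPKM in H3.1WT. In shSuv39h2 it stood at 4.98 and 6.22 FPKM, below every library of the other groups, against 15.5 and 19.6 FPKM in shNC. shSuv39h1 had 21.1 and 23.6 FPKM, above shNC. H3.1WT was the highest group and lay 1.49-fold above shNC, so this gene differed between the control lines as well. The log2 difference was −1.49 (SE 0.199) in shSuv39h2, −0.75 in H3.1K9M, −0.36 in H3.1K36M and 0.34 in shSuv39h1, each against its own control.

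Rpl10l encodes a ribosomal protein of the large subunit and, in mouse, is needed in male meiosis when the X-linked Rpl10 is silent. It was the most abundant gene of the set, above 94.8% of all genes by its mean. It stood at 36.3 and 38.7 FPKM in H3.1K9M, at 101 and 92.8 FPKM in H3.1K36M and at 57.5 and 50.5 FPKM in H3.1WT. The hairpin lines had 47.9 and 54.3 FPKM in shSuv39h1, 61.0 and 85.1 FPKM in shSuv39h2, and 46.2 and 54.7 FPKM in shNC. Rpl10l was the one gene of the set whose shSuv39h2 libraries both lay above shNC, with a log2 difference of 0.51 (SE 0.151) and replicates further apart in FPKM than those of any other group. H3.1K36M was the highest group, at 180% of H3.1WT, and H3.1K9M the lowest, at 69.5% of it.

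Tex101 encodes a glycoprotein anchored to the surface of germ cells, which mouse sperm need to pass into the oviduct. It stood at 2.63 and 2.64 FPKM in H3.1K9M, at 4.10 and 4.08 FPKM in H3.1K36M and at 3.62 and 2.88 FPKM in H3.1WT. In shSuv39h2 it stood at 1.42 and 0.940 FPKM, about 34 and 24 fragments, against 4.59 and 3.82 FPKM in shNC. shSuv39h1, with 3.91 and 3.24 FPKM, overlapped shNC. shSuv39h2 was the lowest group, at 28.0% of shNC, and the difference in H3.1K9M was small, at 81.1% of H3.1WT with a log2 difference of −0.22 (SE 0.142).

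Arl14epl (chromosome 18, 46921815 to 46934232) is a paralog of Arl14ep, which encodes an effector of the small GTPase ARL14. Its coding sequence has 456 bases and that of Arl14ep 828, so their alignment holds long gaps. Of 828 aligned columns, gaps included, 328 or 39.6% are identical. It stood at 3.45 and 4.38 FPKM in H3.1K9M, at 21.7 and 22.4 FPKM in H3.1K36M and at 9.16 and 10.51 FPKM in H3.1WT. The hairpin lines had 7.52 and 8.52 FPKM in shSuv39h1, 3.00 and 3.49 FPKM in shSuv39h2, and 12.01 and 15.6 FPKM in shNC. H3.1K36M was the highest group and lay apart from shNC, the next one, while H3.1K9M and shSuv39h2 were lowest and overlapped each other. The log2 difference (SE 0.142) was −1.14 in H3.1K9M, 1.09 in H3.1K36M, −0.70 in shSuv39h1 and −1.79 in shSuv39h2, each against its own control. Arl14epl was the gene of the set with the lowest shSuv39h1 level relative to shNC, 58.2%, and its libraries did not overlap there.

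Counted over the set, limma's test at an adjusted p of 0.05 called 2 genes lower and none higher in H3.1K9M, Tuba3b and Arl14epl, where 0.29% of all tested genes were called lower, 0.0229% higher and 0.313% in either direction. In H3.1K36M it called 3 higher, Tuba3a, Rpl10l and Arl14epl, and none lower, beside 3.1% of all tested genes called higher, 1.74% lower and 4.84% either way. It called none in shSuv39h1, where 0.0839% of tested genes were called higher, 0.061% lower and 0.145% either way. In shSuv39h2 it called 5 lower, all but Rpl10l, and none higher, beside 4.69% of all tested genes called lower, 5.35% higher and 10.0% either way. These counts follow from how the genes were picked. The median log2 difference over the 6 genes was −0.74 in H3.1K9M, 0.55 in H3.1K36M, −0.08 in shSuv39h1 and −1.38 in shSuv39h2, beside medians over all tested genes between −0.01 and 0.042. In H3.1K9M all 6 genes had both libraries below both H3.1WT libraries, as did 20.6% of all tested genes. In shSuv39h2 5 genes did so against shNC, as did 21.3% of all tested genes, and 1 lay above without overlap, as did 29.5%. In H3.1K36M 4 lay above and 1 below H3.1WT without overlap, as did 38.2% and 27.6% of all tested genes. In shSuv39h1 1 lay above and 2 below shNC, as did 26.8% and 12.7%.

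The calls differed in how they stood under other settings. The genes were picked with these results known, so this describes the fits and cannot test the differences. All 5 in shSuv39h2, and those of Tuba3a and Arl14epl in H3.1K36M, passed under every alternative in which they were tested. The call of Rpl10l in H3.1K36M was lost without any 1 of the 4 libraries compared, at log2 differences between 0.74 and 0.93. The calls of Tuba3b and Arl14epl in H3.1K9M were lost without H3.1WT replicate 1, H3.1WT replicate 2 or H3.1K9M replicate 1, and also with no filter on low values and in a fit over the overexpression arm alone. Tuba3a and Cyct would have passed in H3.1K9M without replicate 2 of that group, at log2 differences of −0.97 and −1.07. Rpl10l would have passed as higher in shSuv39h2 without shSuv39h2 replicate 1, at 0.75, and its difference lay between 0.27 and 0.75 over the alternatives. In H3.1K9M, replicate 1 had the highest summed feeder markers, 1397 FPKM, and the lower value of each of the 6 genes, whereas replicate 2, at 705 FPKM, lay within the H3.1WT range of 406 to 741 FPKM. The part of the feeder RNA in these differences was not tested. In H3.1K36M the feeder sums of 990 and 940 FPKM lay above both H3.1WT libraries, and their part was not tested either. Feeder sums in shSuv39h2, 693 and 558 FPKM, lay within the shNC range of 495 to 710 FPKM.

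The somatic counterparts were not used to pick the set and were tested. Of 6 counterparts, the alpha-tubulins Tuba1a, Tuba1b and Tuba1c, Cycs, Rpl10 and Arl14ep, none passed limma's adjusted threshold in H3.1K9M, H3.1K36M or shSuv39h1, where 0, 1 and 1 had an unadjusted p under 0.05. In shSuv39h2 only Arl14ep passed, and it rose, to 10.1 ± 0.92 FPKM against 6.93 ± 0.863 FPKM in shNC (SD, n = 2 each), with a log2 fold change of 0.49 (SE 0.131, limma adjusted p = 0.046). That call is weak: it held in 5 of 10 alternatives, and adjusted p ranged from 0.0404 to 0.217. It was lost without shNC replicate 1, shSuv39h2 replicate 1 or shSuv39h2 replicate 2. Tuba1c passed when shNC replicate 2 was left out (adjusted p = 0.0432).

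The other counterparts stood between 96.2% (Cycs) and 121% (Tuba1b) of shNC in shSuv39h2. Cycs stood at 35.7 ± 5.89 FPKM in shSuv39h2 and 37.1 ± 5.12 FPKM in shNC (limma adjusted p = 0.815). Rpl10 stood at 1550 ± 14.2 FPKM in shSuv39h2 and 1535 ± 44.9 FPKM in shNC (adjusted p = 0.944), and Tuba1b at 523 ± 80.6 FPKM and 434 ± 81.0 FPKM in the same groups (adjusted p = 0.334). Over all 12 libraries the counterparts spanned 1.25-fold (Rpl10) to 1.76-fold (Arl14ep) between lowest and highest value. The testis-type genes spanned from 2.78-fold (Rpl10l) to 17.3-fold (Tuba3b), a comparison that their choice favours.

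**Figure D2:**
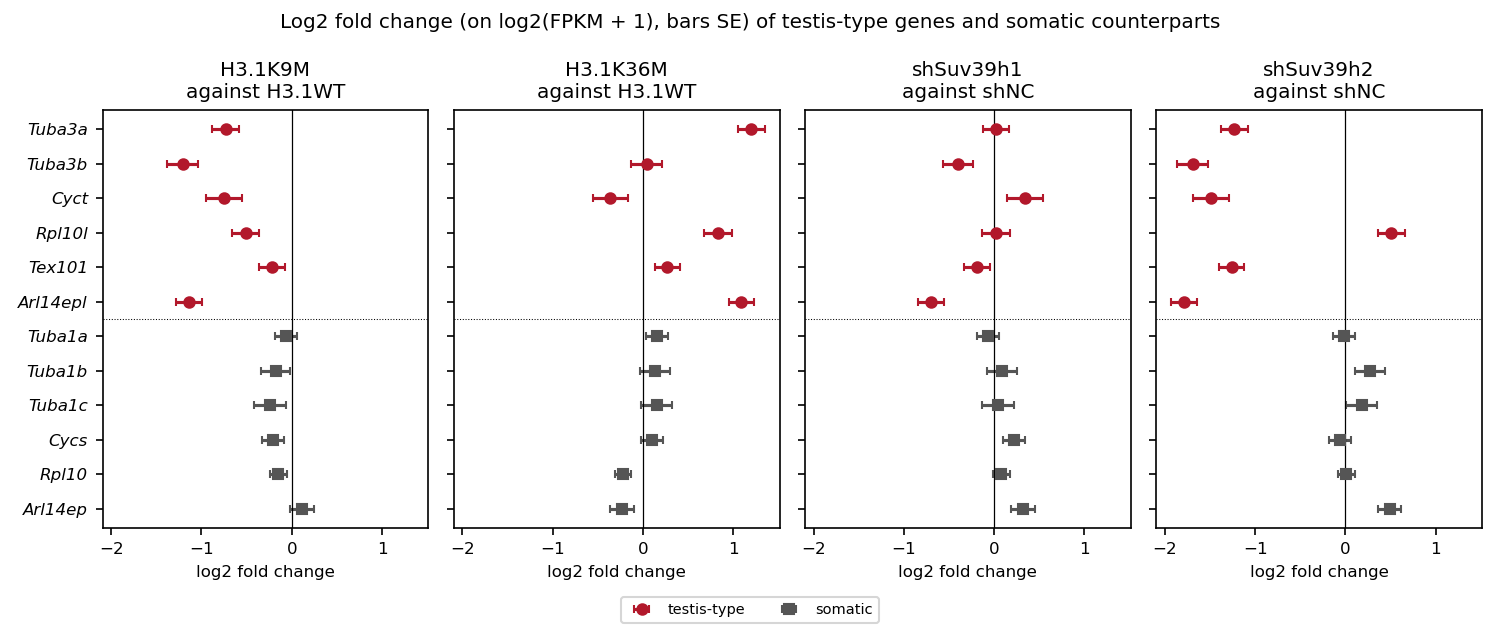
Log2 fold change on the log2(FPKM + 1) scale, with bars for the SE, of the 6 testis-type genes (red circles) and 6 somatic counterparts (grey squares) in the 4 comparisons. Arl14epl lies at −1.79 in shSuv39h2 and its counterpart Arl14ep at 0.49.

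**Figure D3:**
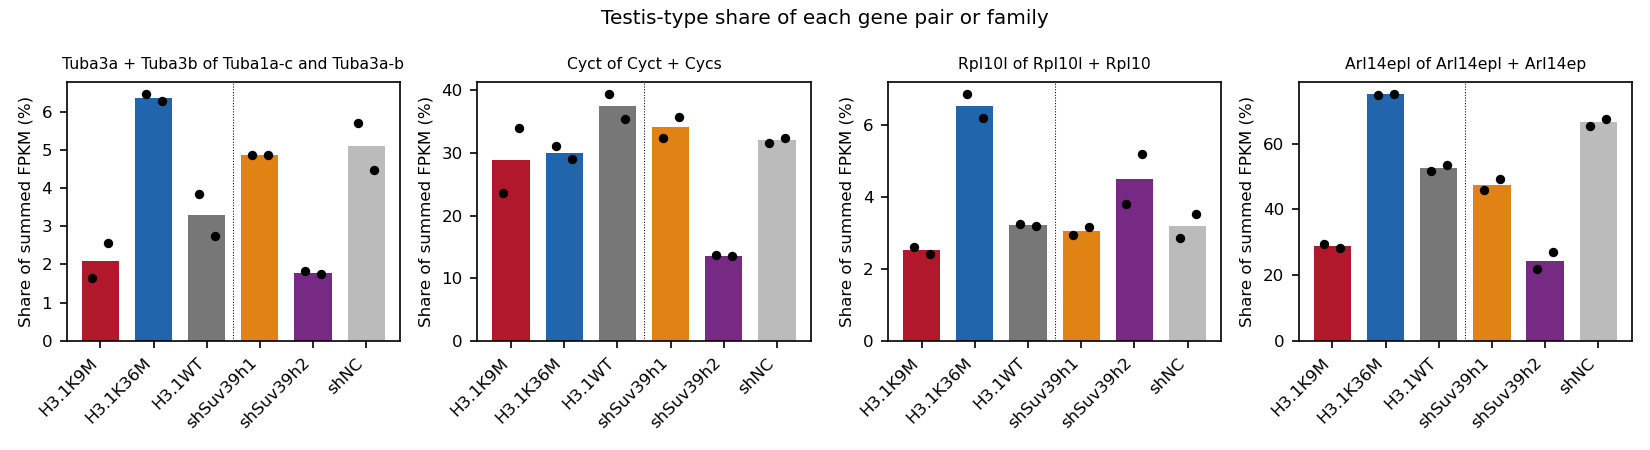
Testis-type share of the summed FPKM of each pair or family in percent, with points for the 2 libraries of a group and bars for their mean. Arl14epl takes 75.0% of its pair in H3.1K36M and 24.4% in shSuv39h2.

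The share of each pair shows how much of the transcript pool is the testis-type copy. Arl14epl made up 28.8% ± 0.738 (SD, n = 2) of its pair in H3.1K9M, 75.0% ± 0.249 in H3.1K36M and 52.7% ± 1.32 in H3.1WT. In the hairpin lines it made up 47.5% ± 2.46 in shSuv39h1, 24.4% ± 3.64 in shSuv39h2 and 66.4% ± 1.32 in shNC. Arl14epl was therefore the larger member of the pair in 3 of the 6 groups and the smaller in the others, and it is the only pair in which that order turned. Cyct made up 13.6% ± 0.0943 of cytochrome c transcripts in shSuv39h2 and 32.0% ± 0.581 in shNC. In the remaining groups its share lay between 28.8% in H3.1K9M and 37.4% in H3.1WT. Rpl10l and the Tuba3 genes were minor copies throughout. Rpl10l made up 2.51% in H3.1K9M, 6.52% in H3.1K36M and 3.22% in H3.1WT, and 4.49% in shSuv39h2 against 3.19% in shNC. Tuba3a and Tuba3b together made up 2.10% of the transcripts of 5 alpha-tubulin genes in H3.1K9M, 6.37% in H3.1K36M and 3.303% in H3.1WT, and 1.79% in shSuv39h2 against 5.09% in shNC.

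The 2 control lines also differed from each other. H3.1WT libraries lay below shNC libraries for Tuba3a (means of 27.8 and 39.2 FPKM, a ratio of 0.711), Tex101 and Arl14epl, above them for Cyct, and overlapped them for Tuba3b and Rpl10l. The lines differ in construct and arm at once, and these cannot be told apart. Whether they share a library kit is not stated.

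Wider lists place the 6 genes among others of their kind. Of 46 other testis-type paralogs, 45 were in the files, 21 passed the filter and 24 did not, and 6 of those were listed at 0 in every library: Pgk2, Pabpc2, Prps1l1, Capza3, Hmgb4 and Aldoart1. The set described here thus belongs to the part of such genes that these cells express. In shSuv39h2 7 of the 21 fell and 1 rose, beside 4.69% of all tested genes called lower and 5.35% higher. The median log2 fold change was −0.20 beside 0.041 over all tested genes. The count of called genes lay between 5 and 10 when a library was left out, and was 5 without shSuv39h2 replicate 2.

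Uba1y, the Y-linked copy of the ubiquitin-activating enzyme gene Uba1, fell in shSuv39h2 to 0.867 ± 0.000282 FPKM, against 7.04 ± 0.782 FPKM in shNC (SD, n = 2 each, limma adjusted p = 1.39e-05). It also fell in H3.1K9M, to 2.54 ± 0.231 FPKM against 7.76 ± 0.468 FPKM in H3.1WT (adjusted p = 0.00292), and in shSuv39h1, to 2.08 ± 0.0591 FPKM against the same shNC libraries (adjusted p = 0.00175). The shSuv39h1 call was lost without shSuv39h1 replicate 1, and the H3.1K9M call in a fit over the arm alone (adjusted p = 0.0528). Uba1y was the 1 of 21 paralogs past the adjusted threshold in each of these comparisons, whereas 11 had an unadjusted p under 0.05 in H3.1K9M and 4 in shSuv39h1. The median log2 fold change of the 21 was −0.37 in H3.1K9M and 0.06 in shSuv39h1, beside −0.01 and 0.042 over all tested genes. Uba1 itself stood at 186 FPKM in shSuv39h2 and 176 FPKM in shNC (adjusted p = 0.632). Rpl39l, a second ribosomal protein copy, fell in shSuv39h2 to 6.18 ± 2.54 FPKM against 20.8 ± 4.00 FPKM in shNC (adjusted p = 0.0034), whereas Rpl39 stood at 1796 and 1904 FPKM in those groups (adjusted p = 0.782). In H3.1K9M Rpl39l averaged 6.20 FPKM against 16.6 FPKM in H3.1WT (37.3%, adjusted p = 0.0587), and in shSuv39h1 8.17 FPKM, 39.3% of shNC (adjusted p = 0.0885), with no overlap of libraries in either comparison. In shSuv39h2 Rpl39l thus fell where Rpl10l, the other ribosomal protein copy, had libraries above shNC. Tktl1, a transketolase-like gene, fell to 0.315 ± 0.0251 FPKM against 1.51 ± 0.137 FPKM (adjusted p = 0.00313). Cstf2t, a retrocopy of the cleavage stimulation factor gene Cstf2, was the one paralog that rose in shSuv39h2, to 14.9 ± 1.10 FPKM against 8.46 ± 0.935 FPKM in shNC (adjusted p = 0.00309). The other genes that fell were Ldhc, Slc25a31, Clgn and Smc1b, and Clgn was the only one whose counterpart, the chaperone gene Canx, passed as well, falling to 103 ± 1.77 FPKM against 151 ± 8.06 FPKM (adjusted p = 0.00326). The calls of Ldhc, Slc25a31 and Smc1b were each lost when 1 library was left out, shSuv39h2 replicate 2 in every case, and those of Ldhc and Smc1b also without shNC replicate 1 or shSuv39h2 replicate 1. The Smc1b call was lost with no filter and with the replicate number as a block as well.

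In H3.1K36M 3 of the 21 rose and 1 fell, beside 3.1% of all tested genes called higher and 1.74% lower. The median was 0.01 beside 0.032 over all tested genes. Of those that rose, Tktl2 reached 1 FPKM in the H3.1K36M libraries alone, and Pdha2 in these and H3.1WT replicate 1. Both thus passed the filter only through the group in which they rose, which favours the count. Tktl2, a second transketolase-like gene, rose to 2.85 ± 0.207 FPKM against 0.729 ± 0.134 FPKM in H3.1WT (SD, n = 2 each, limma adjusted p = 0.00251), a call kept under every alternative run. Cox7b2, a germ cell form of a cytochrome c oxidase subunit, rose to 2.68 ± 0.69 FPKM against 0.112 ± 0.0022 FPKM (adjusted p = 0.00484), and the call was lost without H3.1K36M replicate 1. Pdha2, the testis pyruvate dehydrogenase subunit, rose to 2.31 ± 0.172 FPKM against 1.16 ± 0.252 FPKM, and Utp14b fell to 2.53 ± 0.174 FPKM against 4.36 ± 0.217 FPKM (adjusted p = 0.0195 and 0.0373). Both of these calls were lost without any 1 of the 4 libraries and in the arm alone, and the number called was at most 2 when a library was left out. Their counterparts Cox7b, Pdha1, Tkt and Utp14a were not called. Of the other counterparts Rbmx fell, to 2.32 ± 0.127 FPKM against 4.17 ± 0.344 FPKM in H3.1WT, and Ppp3ca rose, to 11.6 ± 0.578 FPKM against 8.25 ± 0.517 FPKM (adjusted p = 0.0206 and 0.0361), while their testis-type copies did not pass. Both calls were lost without any 1 of the 4 libraries.

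**Figure D4:**
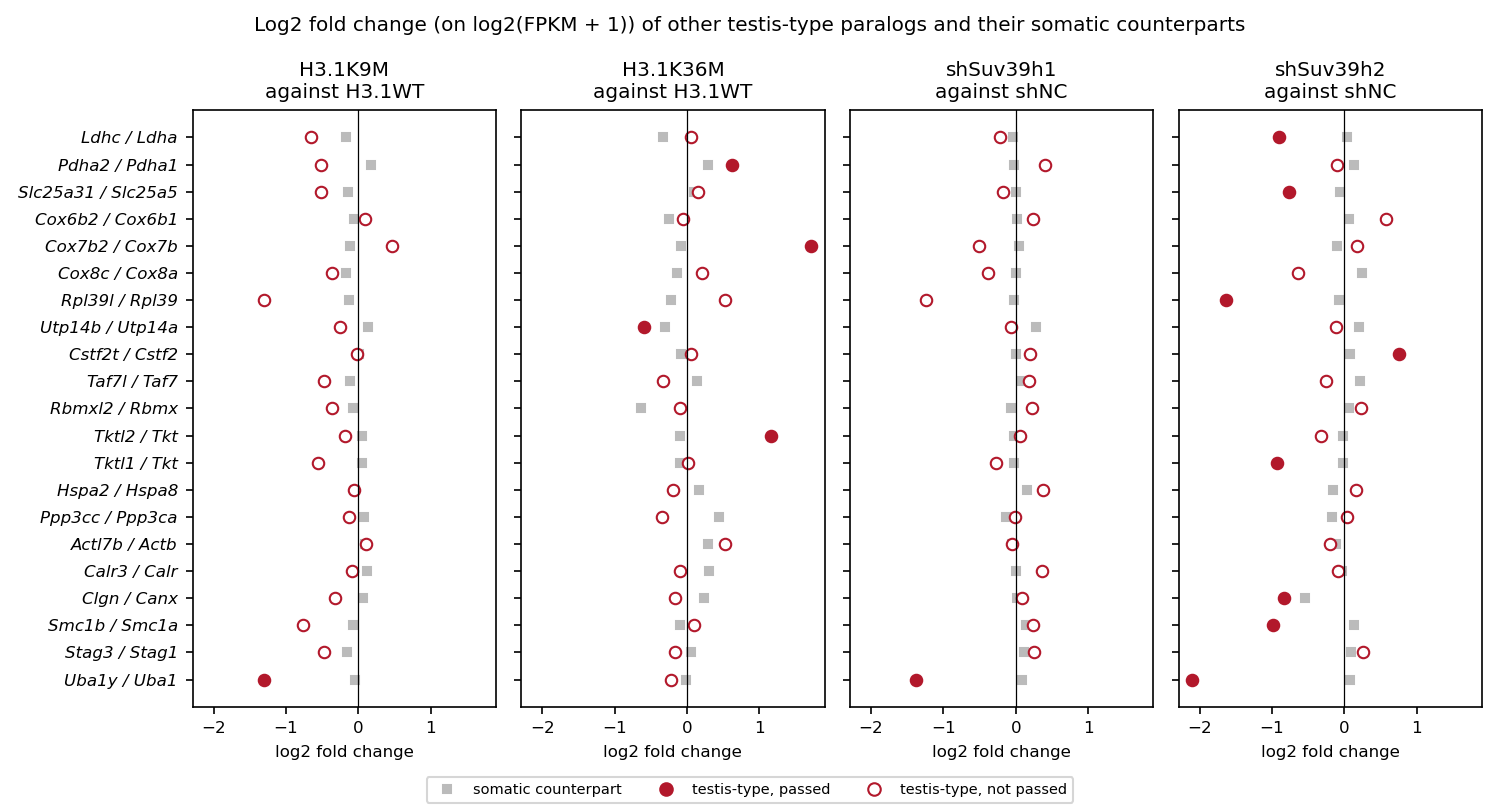
Log2 fold change on the log2(FPKM + 1) scale of 21 other testis-type paralogs (red circles, filled where the limma test passed) and their somatic counterparts (grey squares) in the 4 comparisons. In shSuv39h2 7 paralogs fell and 1 rose, and Uba1y lies lowest at −2.10.

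Germ cell genes known as targets of E2F6 or PRC1.6 were listed because TTCCCGC lies before the RefSeq start of 3 genes of the set. For Tuba3b this rests on the RefSeq start alone, and Arl14epl was not searched. In the list 4 genes, Slc25a31, Smc1b, Stag3 and Taf7l, are also among the paralogs. Of 20 tested, 8 fell and none rose in shSuv39h2, with a median log2 fold change of −0.45. Over all tested genes 4.69% were called lower there and the median was 0.041. Fkbp6, a meiotic co-chaperone gene, fell to 1.22 ± 0.219 FPKM against 9.09 ± 0.555 FPKM in shNC (SD, n = 2 each, limma adjusted p = 2.88e-05), and Dazl, a germ cell RNA-binding protein gene, to 1.76 ± 0.0817 FPKM against 5.05 ± 1.16 FPKM (adjusted p = 0.00256). In H3.1K36M 4 rose and none fell, at a median of −0.06, beside 3.1% of all tested genes called higher and a median of 0.032. Fkbp6 rose to 11.2 ± 0.172 FPKM against 3.63 ± 0.611 FPKM in H3.1WT (adjusted p = 0.000302) and Dazl to 9.41 ± 0.671 FPKM against 4.31 ± 0.652 FPKM (adjusted p = 0.00599). In H3.1K9M Dazl, Fkbp6 and Syce1 fell, calls lost with no filter and in the arm alone, and in shSuv39h1 Fkbp6 fell. Of all tested genes 0.29% were called lower in H3.1K9M and 0.061% in shSuv39h1. With a library left out the count of called genes lay between 3 and 9 in shSuv39h2, 1 and 3 in H3.1K36M, 0 and 7 in H3.1K9M, and 0 and 1 in shSuv39h1. The lowest counts came without shSuv39h2 replicate 2, H3.1K36M replicate 2, H3.1WT replicate 1 and shSuv39h1 replicate 1.

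Genes that silence germ cell genes were also listed, 29 in all, covering DNA methyltransferases, PRC1.6 subunits, HP1 proteins and H3K9 methyltransferases other than Suv39h1 and Suv39h2, with their partners. Of these none passed limma's adjusted threshold in H3.1K9M or shSuv39h1, where 3 and 2 had an unadjusted p under 0.05. In shSuv39h2 4 rose and 1 fell, so that 5 were called, beside 10.0% of all tested genes, and at an unadjusted p of 0.05 the number was 11. Without shSuv39h2 replicate 1 the number called there was 0. Among those that rose were Pcgf6, a defining subunit of PRC1.6, at 26.6 ± 1.57 FPKM against 17.4 ± 2.34 FPKM in shNC (SD, n = 2 each, limma adjusted p = 0.0115), and Ehmt2, an H3K9 methyltransferase gene, at 70.6 ± 1.46 FPKM against 56.6 ± 5.01 FPKM (adjusted p = 0.0381). In H3.1K36M 4 had an unadjusted p under 0.05 and 1 was called, beside 4.84% of all tested genes. That gene, Dnmt3a, which encodes a DNA methyltransferase, fell to 20.2 ± 0.0791 FPKM against 27.8 ± 0.20 FPKM in H3.1WT (adjusted p = 0.0473), a call lost without any 1 of the 4 libraries and in 3 other settings. E2f6 itself stood at 6.62 FPKM in H3.1K36M and 8.48 FPKM in H3.1WT (adjusted p = 0.106).

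Relatives of Tex101 give its family context. Of 10 tested genes of the Ly6 and uPAR list, Tex101 among them, Ly6k fell in shSuv39h2, to 0.593 ± 0.228 FPKM against 2.81 ± 1.46 FPKM in shNC (SD, n = 2 each, limma adjusted p = 0.00981). Ly6k, like Tex101 a surface protein of germ cells, forms a complex with it in the mouse. The call was lost without shSuv39h2 replicate 1. Gml rose in H3.1K36M, to 1.13 ± 0.107 FPKM against 0.0285 ± 0.0402 FPKM in H3.1WT (adjusted p = 0.00154). Its H3.1K36M level lay just above the filter of 1 FPKM, which its H3.1WT level did not reach. Of the somatic relatives, Ly6e stood at 25.4 FPKM in shSuv39h2 and 28.9 FPKM in shNC (adjusted p = 0.419).

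Markers of the 2-cell-like state, a rare state of stem cell cultures in which early embryonic genes are on, were summed in each library. Their summed FPKM over 12 genes was 12.5 and 8.75 in H3.1K9M, 52.0 and 53.7 in H3.1K36M, and 32.4 and 29.3 in H3.1WT. In the hairpin lines it was 19.4 and 16.2 in shSuv39h1, 2.75 and 3.24 in shSuv39h2, and 22.6 and 34.6 in shNC. The sum was thus low in H3.1K9M and shSuv39h2 and high in H3.1K36M, as for Tuba3a and Arl14epl. In shSuv39h1 the sum also lay below both shNC libraries, as did Arl14epl, whereas Tuba3a overlapped shNC. Other genes of the set differed from the sum as well. Rpl10l lay above shNC in shSuv39h2, and in H3.1K36M Tuba3b overlapped H3.1WT and Cyct lay below H3.1WT. Of all tested genes 4.69% were called lower in shSuv39h2, 0.29% lower in H3.1K9M and 3.1% higher in H3.1K36M. Of the markers, all 8 tested fell in shSuv39h2, 4 fell in H3.1K9M and 1 rose in H3.1K36M. With a library left out these counts lay between 5 and 8, between 0 and 5, and at 0. Whether the cells with these markers carried the testis-type transcripts was not tested.

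The genes of the set did not all vary alike. Over the 12 libraries, Pearson's r of log2(FPKM + 1) was 0.94 between Tuba3a and Arl14epl, 0.84 between Tuba3a and Tuba3b and 0.85 between Tuba3b and Tex101. Rpl10l stood apart, with r of −0.13 to Cyct, −0.09 to Tex101 and 0.18 to Tuba3b, and at most 0.51, to Tuba3a. These values come from 6 groups of 2 libraries and describe the same differences as above. Among all tested genes, those most like the mean of the set were Myh13 (r = 0.971), Serpinb1a (0.961), Rab33b (0.957), Mageb4 (0.957) and 2410076I21Rik (0.955). Myh13, a myosin heavy chain gene of extraocular muscle, averaged 2.10 FPKM in H3.1K9M, 5.58 FPKM in H3.1K36M and 4.05 FPKM in H3.1WT, and 1.99 FPKM in shSuv39h2 against 4.53 FPKM in shNC. Closest to single genes were Fyttd1 and Casc4 for Tuba3a (r = 0.976 and 0.971), Gm11545 and Tktl1 for Tuba3b (0.973 and 0.96), and Pes1 and C1qbp for Cyct (0.982 and 0.976). Mcf2 and Elk1 were closest to Rpl10l (0.945 and 0.939), Fam134c and 2410076I21Rik to Tex101 (0.954 each), and the germ cell genes Dazl and Sohlh2 to Arl14epl (0.981 and 0.97). Pes1, which acts in ribosome assembly, averaged 97.5 FPKM in H3.1K9M and 112 FPKM in H3.1WT. Like Cyct it was lowest in shSuv39h2, at 75.9 FPKM against 103.9 FPKM in shNC. Cyct stood at 4.98 and 6.22 FPKM in shSuv39h2 against 15.5 and 19.6 FPKM in shNC. A high r thus does not mean a like size of difference.

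Neighbouring genes were examined because position was not used in choosing the set. The nearest 2 tested genes on each side of each gene gave 24 neighbours. None passed limma's adjusted threshold in H3.1K9M or shSuv39h1, where 5 and 4 had an unadjusted p under 0.05. In H3.1K36M 2 of 24 fell, beside 1.74% of all tested genes called lower and 4.84% either way. In shSuv39h2 1 rose and 1 fell, beside 5.35% of all tested genes called higher, 4.69% lower and 10.0% either way. Calls among the neighbours were thus no more frequent in shSuv39h2 than over all tested genes. Beside Tuba3a, which was high in H3.1K36M, Tapbpl at a distance of 46.4 kb fell to 3.70 ± 0.302 FPKM, against 8.77 FPKM in H3.1WT (n = 2 each, limma adjusted p = 0.000484), under every alternative run. Sema6a, 301.4 kb from Arl14epl, fell to 0.380 FPKM in H3.1K36M against 1.09 FPKM in H3.1WT (adjusted p = 0.0316). In shSuv39h2 Ttc30a1, 372 kb from Cyct, rose to 2.92 ± 0.423 FPKM against 1.05 FPKM in shNC (adjusted p = 0.0109), opposite in direction to Cyct, and Ap3s1, 131 kb from Arl14epl, fell to 21.7 ± 1.07 FPKM against 27.6 FPKM (adjusted p = 0.0438). The calls of Sema6a and Ap3s1 were lost without any 1 of the 4 libraries compared, and that of Ttc30a1 without shNC replicate 1 or shSuv39h2 replicate 2. The 8 neighbours of Rpl10l and Tex101, and the 4 of Tuba3b, passed in no comparison.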

How the data were processed

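The 12 files hold 1 value per gene symbol, FPKM as deposited, made by the authors from mRNA libraries sequenced on a HiSeq X-10, per the labels' protocols. The unit was read from the values, whose low steps fit whole fragments: 73.7% of 5476 values of 1471 low genes with a single transcript were whole within 0.05, where chance gives 10%. TopHat2 2.0.13, Cuffdiff 2.2.1 and mm10 are named in the submitters' processing notes; their settings and the annotation are not known here. Both NEBNext Ultra and TruSeq v2 kits are named, per the labels' protocols, which do not say which library used which kit. FPKM splits reads between copies by model, and the recovered depth is approximate.

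Genes reaching 1 FPKM in 2 or more libraries were tested with limma 3.58.1 (R 4.3.3) on log2(FPKM + 1), which understates the change of low genes. A single fit used 12 libraries, 6 group means, 6 residual degrees of freedom and an intensity trend with a prior of 3.66. Tests were two-sided with Benjamini-Hochberg adjustment over 13109 genes at 0.05. Percentages of control are ratios of mean FPKM. The steps were tested on simulated data. Positions come from GENCODE M21 (GRCm38), which placed 12344 of the tested symbols, and promoters from RefSeq GRCm38.p6. RefSeq promoters matched 5 of the 6 genes, all but Arl14epl.

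The members, lists and tests were chosen with earlier results of these data known. Named were every member, its counterparts, Suv39h1 and Suv39h2, called paralogs and, from other lists, genes by smallest p, up to 4 per comparison, the genes most like the members by Pearson's r, and the neighbours; further genes named were chosen after their values were seen. Alternatives were a pseudocount of 0.1, no filter or 5 FPKM, median-of-ratios scaling, a fit over each arm alone, a replicate block and each library left out.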

Additional observations from a re-analysis of the deposited data

How the results depend on the processing

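With all 12 libraries 41 genes were called in H3.1K9M, 634 in H3.1K36M, 19 in shSuv39h1 and 1316 in shSuv39h2. In H3.1K9M the count was 12 with no filter, 27 with the filter of 5 FPKM and 2 in a fit over the arm alone, and it lay between 2 and 695 with a library left out. In H3.1K36M it was 354 with the filter of 5 FPKM and 186 in the arm alone, and between 107 and 200 with a library left out. In shSuv39h1 it was 11 with a pseudocount of 0.1 and 3 in the arm alone, and between 0 and 18 with a library left out. In shSuv39h2 it was 866 in the arm alone, and between 360 and 1567 with a library left out. Median-of-ratios scaling turned the split in shSuv39h1, with 5 higher and 8 lower against 11 and 8 as deposited. Fits with fewer libraries have fewer residual degrees of freedom, and the cause of the other shifts was not tested.

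Replicate numbers of a comparison were used as a replicate block, although the labels do not say that a number marks a shared batch. Deviations of same-numbered libraries correlated at −0.384 in H3.1K9M, −0.0192 in H3.1K36M, −0.242 in shSuv39h1 and 0.383 in shSuv39h2. With the replicate block 39 genes were called in H3.1K9M, 595 in H3.1K36M, 10 in shSuv39h1 and 1323 in shSuv39h2.

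The 10 member differences that were called kept their direction under every alternative run. Differences near 0 did not: those of Tuba3b in H3.1K36M, Tuba3a in shSuv39h1 and Rpl10l in shSuv39h1 kept their sign in 7 of 9, 7 of 10 and 7 of 10 alternatives. Depth limits Tuba3b and Tex101 most: with a pseudocount of 0.1 their log2 differences in shSuv39h2 were −2.92 and −1.77, and both were left out by the filter of 5 FPKM.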
